A study of Mus musculus with 16 samples.

Results

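The LIM homeobox transcription factors are a family of DNA-binding proteins that give classes of neurons their identity. The 10 genes described here were Lhx1, Lhx2, Lhx3, Lhx4, Lhx5, Lhx6, Lhx8, Lhx9, Isl1 and Lmx1a. A probe set is a short set of probes that reads 1 or more transcripts. The genes were taken as every probe set whose only gene symbol in the platform annotation was one of these names. The rule gave 18 of the 45101 probe sets of the array: 4 genes had 1 probe set, 5 had 2, and Lhx9 had 4. The arrays came from the cerebellum, or from all of the brain except the cerebellum (the rest of the brain), of female and male mice. There were 2 arrays for every genotype, sex and brain part, so that 8 arrays of each brain part and 8 of each genotype were compared. KO mice were homozygous for a SINE allele of Pgc1α: a founder line on the C57BL/6J background with a 4-bp deletion shortly after the putative start codon in the SINE exon, and the RNA is still made. WT mice were their littermates, matched for age, with the age at dissection not given in the sources used here. The allele leaves the transcript in place, so calls of the Pgc1α gene cannot check the genotype labels. Leftover brain stem was trimmed off by hand during dissection.

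A LIM homeodomain protein carries a pair of LIM zinc fingers, which bind partner proteins, and a homeodomain, which binds DNA. Ldb proteins bridge LIM domains into larger complexes, LIM-only (Lmo) proteins compete for Ldb, and Ssbp and Rlim proteins set how long Ldb persists. Different neuron classes use different LIM homeobox genes, and several members are best known from the embryo. Lhx1 and Lhx5 act in Purkinje cells, Lhx2 and Lhx9 in cortical progenitors and thalamus, and Lhx6 and Lhx8 in interneurons and cholinergic neurons of the ventral forebrain. Isl1 acts in motor neurons and striatal neurons, Lhx3 and Lhx4 in the pituitary and in motor neurons, and Lmx1a in the roof plate, the choroid plexus and midbrain dopamine neurons.

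The deposited values are detection levels and not intensities. Level 2 was read as detected, 1 as marginal and 0 as not detected. Levels -1 and -2 have no settled meaning and counted with level 0. The reading of the levels is not given in the sources used here. Calls do not measure amounts: transcripts seen on 2 sets of arrays can have unequal levels, and a transcript that is not detected may be below the sensitivity of the array. In a whole brain part, fewer cells of a type and less RNA per cell cannot be told apart. Detection on 8 of 8 arrays has an exact (Clopper-Pearson) 95% interval of 63.1 to 100%, and 0 of 8 one of 0 to 36.9%. Nothing in the labels says which arrays share an animal, and p-values measure the spread between these specimens. Each brain was split into cerebellum and rest of brain, so 1 mouse may have given an array of each part. The 8 arrays of a genotype may then come from fewer than 8 mice. In that case the SDs and p-values for KO against WT do not measure the spread between mice.

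The sequence upstream of the start is shown for members detected on more arrays of one brain part and with a start at or close to the end of the gene model. They are set side by side (RefSeq, GRCm38.p6, 250 bases before the start, 5′ to 3′ on the strand of the gene). For Lhx2 and Lhx8 the brain parts differed with Fisher's exact p = 0.0769 and 0.2. Lhx6 and Lhx9 are not shown, as their starts lie further inside the gene model, and the set of RefSeq windows used here held none for Lhx5. Capitals mark CCAAT and GGGCGG, each on either strand. The windows are chr11:84525535-84525784 (minus strand) for Lhx1, chr2:38339031-38339280 (plus strand) for Lhx2, chr3:154330561-154330810 (minus strand) for Lhx8 and chr13:116309689-116309938 (minus strand) for Isl1.
Lhx1: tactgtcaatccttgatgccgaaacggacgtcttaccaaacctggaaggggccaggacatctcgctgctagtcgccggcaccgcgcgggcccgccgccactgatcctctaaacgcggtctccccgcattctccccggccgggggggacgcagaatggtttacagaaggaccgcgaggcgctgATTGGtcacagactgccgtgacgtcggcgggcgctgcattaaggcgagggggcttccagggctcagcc
Lhx2: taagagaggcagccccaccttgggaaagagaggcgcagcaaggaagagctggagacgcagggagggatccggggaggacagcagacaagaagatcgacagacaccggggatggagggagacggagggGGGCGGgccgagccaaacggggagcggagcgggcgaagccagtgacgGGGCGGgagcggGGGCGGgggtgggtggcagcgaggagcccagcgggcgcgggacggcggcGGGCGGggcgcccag
Lhx8: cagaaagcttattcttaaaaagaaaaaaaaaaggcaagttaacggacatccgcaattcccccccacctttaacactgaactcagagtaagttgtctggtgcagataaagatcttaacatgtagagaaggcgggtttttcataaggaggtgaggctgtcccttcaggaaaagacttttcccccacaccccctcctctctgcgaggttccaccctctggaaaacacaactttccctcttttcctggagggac
Isl1: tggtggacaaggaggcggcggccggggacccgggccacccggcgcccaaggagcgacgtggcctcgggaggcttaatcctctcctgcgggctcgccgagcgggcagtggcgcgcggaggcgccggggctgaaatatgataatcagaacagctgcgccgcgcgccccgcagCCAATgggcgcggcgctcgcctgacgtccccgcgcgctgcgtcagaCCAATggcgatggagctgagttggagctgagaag

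The windows differed in composition. The Isl1, Lhx1 and Lhx2 windows held 33, 26 and 25 CG pairs, against a median of 6 over the 32851 windows of the RefSeq table, and the Lhx8 window held 4. The motif CCAAT occurred 2 times in the Isl1 window and 1 time in the Lhx1 window, and in neither of the other windows shown. It is present in 33.8% of all windows of that length. The motif GGGCGG occurred 4 times in the Lhx2 window alone, and 32.7% of all windows hold it. The homeodomain core TAATTA, found in 4.84% of all windows, was in none of the 13 windows of the 9 members that the table holds. TATAAA, found in 12.4% of all windows, was in 1 member window, of Lhx3. A match, or the lack of one, is a description of these letters only.

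Detection of the LIM homeobox genes ran from all arrays to none. Of the 18 probe sets, 2 (11.1%) were detected on every array, 5 (27.8%) on no array and 11 (61.1%) on some. Over all 45101 probe sets the shares were 48% on every array, 27% on none and 25% on some. On a cerebellum array, 6 to 8 member probe sets were detected, with a median of 7, and on a rest-of-brain array 6 to 10, with a median of 8. The mean share was 38.9% ± 5.14 on cerebellum arrays and 45.8% ± 6.47 on rest-of-brain arrays (SD, n = 8 each), beside 59.1% ± 1.32 and 60.3% ± 1.05 for all probe sets. The difference in members, cerebellum minus rest of brain, was -6.94 percentage points, close to the spread between arrays, and 2.885 without the probe sets whose names end in _a_at, _s_at or _x_at.

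**Figure D1:**
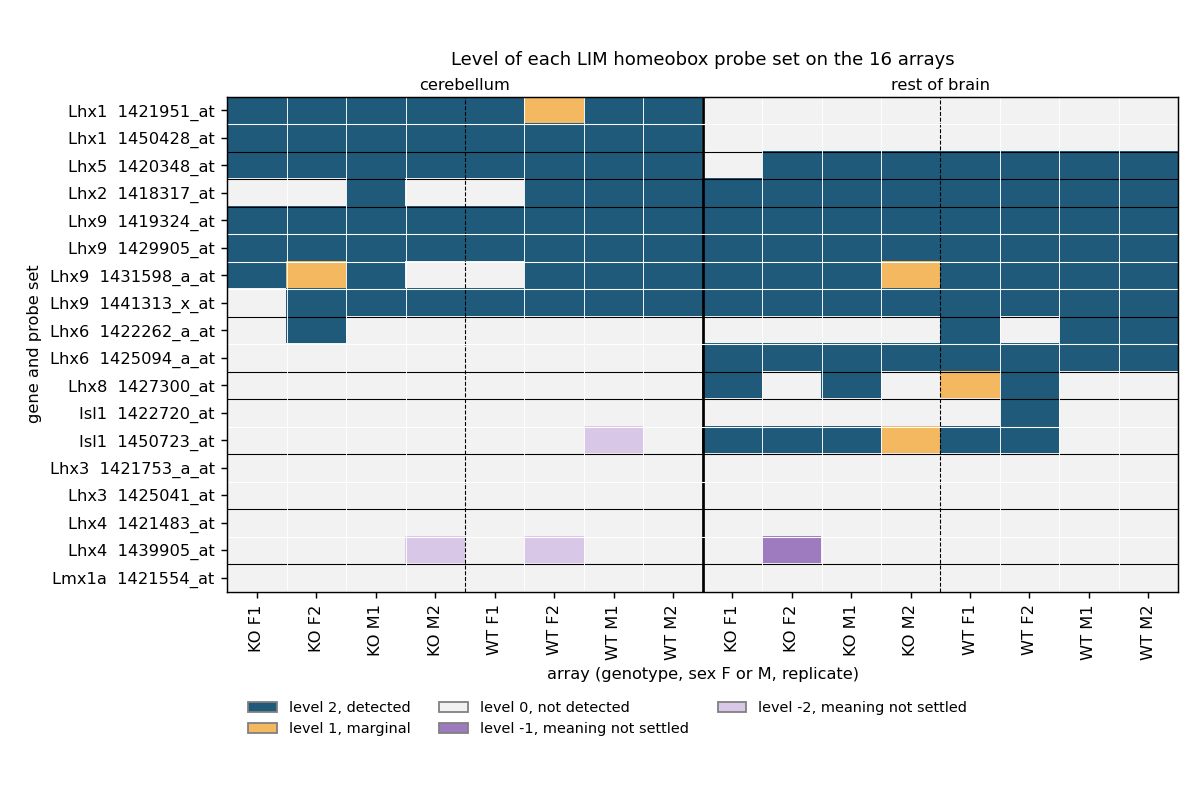
Level of each of the 18 LIM homeobox probe sets (rows) on each of the 16 arrays (columns, named by genotype, sex F or M and replicate), with the 8 cerebellum arrays left of the 8 rest-of-brain arrays. Lhx1 fills the cerebellum side and is empty on the other, Lhx6 1425094_a_at shows the opposite, and Lhx3, Lhx4 and Lmx1a are detected nowhere.

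Lhx1 and Lhx5 are close paralogues that act together in the differentiation of Purkinje cells, the output neurons of the cerebellar cortex. Lhx1 lies at chr11:84517975-84525534. Its probe set 1450428_at was detected on all 8 cerebellum arrays and on none of the 8 rest-of-brain arrays. Its other probe set, 1421951_at, was detected on 7 cerebellum arrays, was marginal on WT female replicate 2, and was not detected on any rest-of-brain array. Every cerebellum array was thus above every rest-of-brain array in the level of both probe sets. Fisher's exact test (two-sided) gave p = 0.0001554 for 1450428_at, the smallest that 8 against 8 arrays can give, and p = 0.0014 for 1421951_at. Detection on every cerebellum array and no rest-of-brain array was found for 0.0554% of all probe sets.

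Adjusted over all 45101 probe sets (Benjamini-Hochberg), a complete switch between the brain parts had p = 0.0501 by the same exact test, so that 0% of probe sets were called. Adjusted over the 3873 probe sets detected on 5 to 11 arrays, the only totals at which the exact p can fall below 0.05, 17.1% were called. In that adjustment, chosen with earlier results of these data known, Lhx1 had p = 0.0043 for 1450428_at and p = 0.0138 for 1421951_at (Fisher's exact test).

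Lhx5, at chr5:120431886-120441457, differed from its paralogue. Its probe set 1420348_at was detected on all 8 cerebellum arrays and on 7 rest-of-brain arrays, the exception being KO female replicate 1 (Fisher's exact p = 1). The 21 probe sets of the Purkinje cell list (6 of its 8 genes were named on the array) were detected in numbers of 15 to 20 on cerebellum arrays, with a median of 19, and 14 to 19 on rest-of-brain arrays, with a median of 15. Pcp2, a protein found almost only in Purkinje cells, had 7, 8 and 7 cerebellum arrays and 1, 4 and 1 rest-of-brain arrays at its 3 probe sets. KO female rest-of-brain replicate 1, the array without Lhx5, had the highest Purkinje count of its brain part, 19, and the highest granule cell count, 12 of 15, and no Lhx1. Zic2 and Barhl1, transcription factors of granule cells, had a probe set on all 8 cerebellum arrays and none on any rest-of-brain array. The part of Purkinje and granule cell RNA in the Lhx1 result was not tested.

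The non-coding gene Lhx1os starts 126 bases from the start of Lhx1 and runs the other way, at chr11:84525660-84535831, so that its start lies inside the Lhx1 window printed above. Lhx1os probe set 1439232_at was detected on all 8 cerebellum arrays and on 7 rest-of-brain arrays, all but WT female replicate 2. On those 7 rest-of-brain arrays Lhx1os was detected where neither Lhx1 probe set was.

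Lhx2 and Lhx9 are another pair of paralogues. Lhx2 keeps cortical progenitors and the eye field in their identity, and Lhx9 marks thalamic and pioneer neurons. Lhx2, at chr2:38339271-38369737, was detected by 1418317_at on 4 of 8 cerebellum arrays and on all 8 rest-of-brain arrays. The 4 cerebellum arrays were KO male replicate 1, WT female replicate 2 and both WT males. The other 4, both KO females, KO male replicate 2 and WT female replicate 1, were at level 0. The exact p was 0.0769 by Fisher's test, the smallest that detection on 12 arrays allows. It was 0.0256 when any one of the 4 cerebellum arrays with Lhx2 was left out, WT female replicate 2 among them. The exact interval for 4 of 8 is 15.7 to 84.3%.

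Lhx9, at chr1:138825186-138848839, was the only member detected on every array. Its probe sets 1419324_at and 1429905_at were at level 2 on all 16 arrays. Probe set 1441313_x_at missed only KO female cerebellum replicate 1. Probe set 1431598_a_at was detected on 5 cerebellum and 7 rest-of-brain arrays (Fisher's exact p = 0.569). It was marginal on KO female cerebellum replicate 2 and KO male rest-of-brain replicate 2, and at level 0 on KO male cerebellum replicate 2 and WT female cerebellum replicate 1. The probe sets of the gene thus gave different patterns on the same arrays. Both arrays at level 0 also lacked Lhx2, and the calls of 1431598_a_at and the Lhx2 probe set were the same on 14 of 16 arrays.

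Markers of the thalamus, where both genes are known in development, were seen on 7 to 10 of 14 probe sets per cerebellum array and 10 to 11 per rest-of-brain array. Tnnt1 and a probe set of Synpo2 were each on 3 cerebellum and 8 rest-of-brain arrays. The 10 probe sets of unipolar brush cells and excitatory cerebellar nuclei had 7 to 9 detected per cerebellum array and 8 to 10 per rest-of-brain array. In that list Tbr1, a transcription factor of cortical and nuclear neurons, was on no cerebellum array and on all 8 rest-of-brain arrays. A probe set of Slc17a6 was on 5 cerebellum and 8 rest-of-brain arrays. Eomes went the other way, on 7 cerebellum arrays at both of its probe sets and on 1 and 3 rest-of-brain arrays. The part of these cell types in the Lhx2 calls was not tested.

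**Figure D2:**
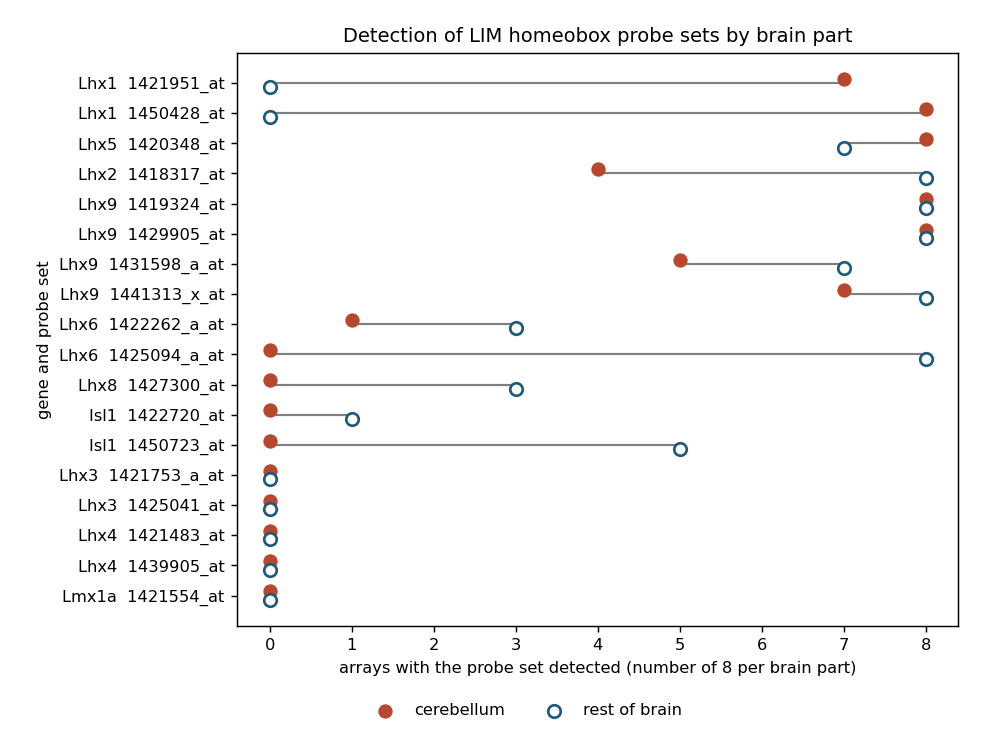
Number of arrays, of 8 per brain part (horizontal axis), with each LIM homeobox probe set detected (rows), with filled points for the cerebellum and open points for the rest of the brain. Lhx1 points lie at 7 and 8 for the cerebellum and at 0 for the rest of the brain, Lhx6 1425094_a_at at 0 and 8, and Isl1 1450723_at at 0 and 5.

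Lhx6 and Lhx8 act in the medial ganglionic eminence, the ventral forebrain zone that supplies cortical interneurons and cholinergic neurons. Lhx6, needed for the migration and identity of those interneurons, lies at chr2:36081950-36105992. Its probe set 1425094_a_at was detected on none of the 8 cerebellum arrays and on all 8 rest-of-brain arrays, the exact opposite of Lhx1 1450428_at on all 16 arrays. Fisher's exact test gave p = 0.0001554 (0.0501 adjusted over all probe sets and 0.0043 over those detected on 5 to 11 arrays). Detection on all rest-of-brain arrays and no cerebellum array was found for 0.255% of all probe sets, and 92 other genes had calls identical to those of this probe set.

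The other Lhx6 probe set, 1422262_a_at, was detected on 1 cerebellum array, KO female replicate 2, and on 3 rest-of-brain arrays, WT female replicate 1 and both WT males (Fisher's exact p = 0.569). The 2 Lhx6 probe sets had the same call on 10 of 16 arrays. Both names end in _a_at, which marks probes that can read several transcripts of a gene.

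Lhx8, at chr3:154306288-154330560, is needed for cholinergic neurons of the basal forebrain. Probe set 1427300_at was detected on no cerebellum array and on 3 rest-of-brain arrays: KO female replicate 1, KO male replicate 1 and WT female replicate 2. It was marginal on WT female replicate 1 and at level 0 on the other 4. The brain parts overlap, and Fisher's exact test gave p = 0.2, the smallest that detection on 3 arrays allows.

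Markers of interneurons from the medial ganglionic eminence were detected at 12 to 15 of 20 probe sets per cerebellum array and 15 to 16 per rest-of-brain array. Dlx1 and Dlx5, which act upstream in these cells, were on no cerebellum array and all 8 rest-of-brain arrays, as Lhx6 1425094_a_at was. Nkx2-1, the embryonic regulator of Lhx6, was on no array, while Sst and Npy, peptides of these interneurons, were on all 16. The cholinergic list was near empty, with at most 1 of its 6 probe sets on any array of either brain part. Chat and Slc5a7, which define cholinergic neurons, were at 0 on every array, including the 3 arrays with Lhx8. The part of these cells in the Lhx6 and Lhx8 calls was not tested.

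Isl1 directs motor neuron identity and acts in striatal neurons of the direct pathway and in the hypothalamus. It lies at chr13:116298270-116309688. Probe set 1450723_at was detected on no cerebellum array and on 5 rest-of-brain arrays, which were all 4 of the females and KO male replicate 1. KO male replicate 2 was marginal, and both WT males were at level 0. On WT male cerebellum replicate 1 the value was -2. The p of Fisher's exact test was 0.0256 (1 adjusted over all probe sets and 0.0944 over those detected on 5 to 11 arrays). The second probe set, 1422720_at, was detected only on WT female rest-of-brain replicate 2.

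The striatal list was detected at 6 to 9 of 11 probe sets per cerebellum array and 9 to 10 per rest-of-brain array. Both probe sets of Drd1, the dopamine receptor of direct-pathway neurons, were on 1 cerebellum array and all 8 rest-of-brain arrays, including the 3 male arrays without a detected Isl1 call. The hypothalamus list gave 1 to 5 of 11 per cerebellum array and 6 to 8 per rest-of-brain array. Avp, the vasopressin gene, was on no cerebellum array and on all 8 rest-of-brain arrays, and Oxt, the oxytocin gene, on none and 5. The part of these regions in the Isl1 calls was not tested.

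Lhx3 and Lhx4 pattern the anterior pituitary and ventral motor neurons. Lhx3 (chr2:26200212-26208249; 1421753_a_at and 1425041_at) was at level 0 on all 16 arrays. Lhx4 (chr1:155698031-155751726; 1421483_at and 1439905_at) was detected on none. Probe set 1421483_at was at level 0 throughout. Probe set 1439905_at had level -2 on KO male cerebellum replicate 2 and WT female cerebellum replicate 2, and -1 on KO female rest-of-brain replicate 2.

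Pituitary hormone transcripts were present on some of these arrays. The 13 pituitary probe sets had 1 to 7 detected per cerebellum array and 0 to 10 per rest-of-brain array, with the 10 on KO male replicate 1. Tshb was on 7 cerebellum arrays and 1 rest-of-brain array, the largest difference of the list. A probe set of Pomc was on 4 and 2, and those of Gh on 3 to 4 and on 1 to 3. Prl, Cga and Fshb went the other way, on 1, 0 and 0 cerebellum arrays and on 2, 1 and 1 rest-of-brain arrays. Lhb and Pitx1 were at 0 on all arrays. Lhx3 and Lhx4 were not detected on any array. The 27 hindbrain and motor neuron probe sets had 3 to 16 detected per cerebellum array and 3 to 9 per rest-of-brain array. Both KO female cerebellum arrays had 16 and WT female cerebellum replicate 1 had 13, and none of these had a detected call for Isl1, Lhx3 or Lhx4.

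Lmx1a, which specifies the roof plate and midbrain dopamine neurons and is found in unipolar brush cells, lies at chr1:167688230-167848741. Probe set 1421554_at was at level 0 on all 16 arrays. Markers of cell types that use the gene were nonetheless seen. The choroid plexus list gave 7 to 11 of 12 probe sets per cerebellum array and 9 to 10 per rest-of-brain array. The dopamine neuron list gave 4 to 8 of 12 and 6 to 8, with Slc6a3, the dopamine transporter, on 1 cerebellum array and all 8 rest-of-brain arrays. In that list En1 and Foxa1 went the other way, on 6 and 1 cerebellum arrays and on 3 and 0 rest-of-brain arrays. Pitx3 was on no array. Eomes, a marker of unipolar brush cells, was on 7 cerebellum arrays at both of its probe sets and on 1 and 3 rest-of-brain arrays.

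**Figure D3:**
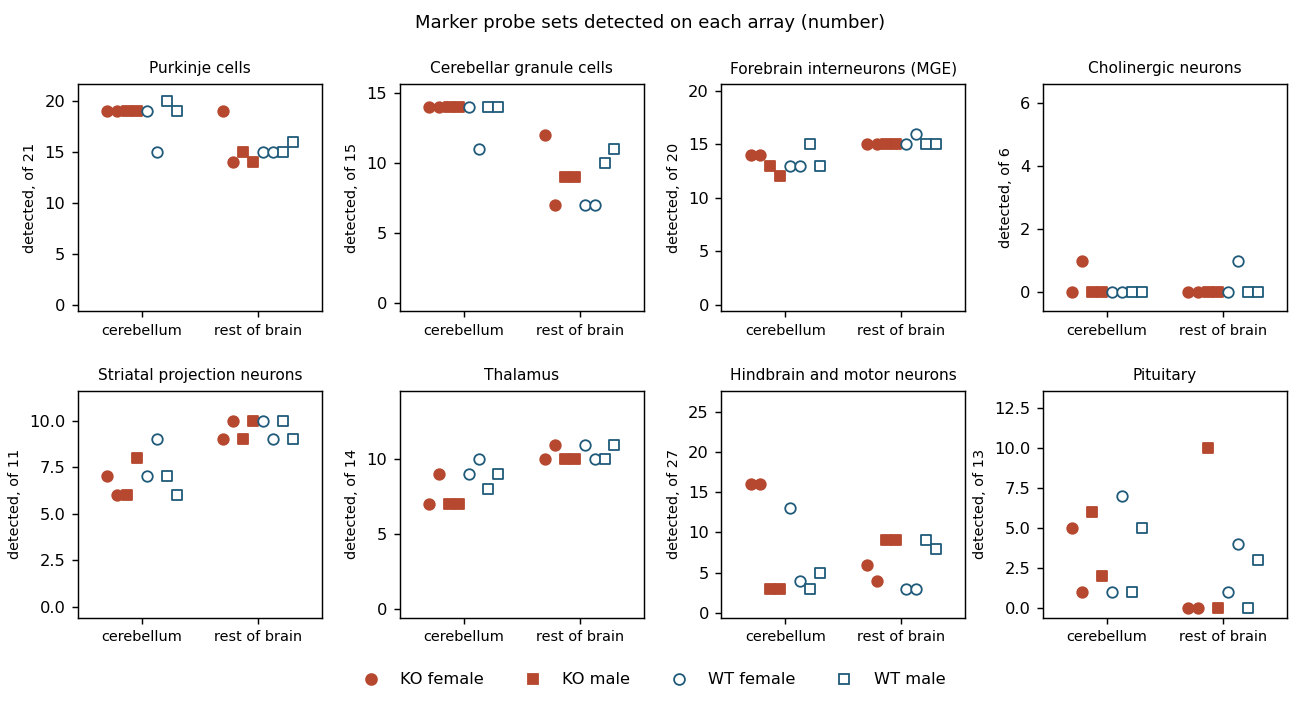
Number of marker probe sets detected on each array (vertical axis, from 0 to the size of the list) for 8 cell type or region lists, with cerebellum left of rest of brain in each panel, KO filled and WT open, females as circles and males as squares. Cholinergic markers sit at 0 or 1 on every array, and 3 female cerebellum arrays stand above the others for hindbrain and motor neurons.

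Over the family, 3 probe sets were detected on more cerebellum than rest-of-brain arrays, 8 on fewer and 7 on as many. An unadjusted p under 0.05 by Fisher's exact test was reached by 2 probe sets higher in the cerebellum, both of Lhx1, where 1.04% of all probe sets did so. It was reached by 2 lower in the cerebellum, of Lhx6 and Isl1, where 1.73% of all did. Over the 4 member probe sets detected on 5 to 11 arrays, 3 were called in the limited adjustment, and with any single array left out 2 to 3 were called over all probe sets. By gene, 5 members were detected on at least 1 cerebellum array (Lhx1, Lhx2, Lhx5, Lhx6 and Lhx9) and 6 on at least 1 rest-of-brain array (Lhx2, Lhx5, Lhx6, Lhx8, Lhx9 and Isl1).

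WT female cerebellum replicate 2 stood apart from the other arrays of its brain part. It detected 39.8% of the 269 probe sets that separated male cerebellum from male rest of brain and 50% of the 382 that separated them the other way, while the other 3 female cerebellum arrays had 77 to 89.6% and 23.8 to 29.3%. It was also the array with the marginal Lhx1 call, the lowest Purkinje count (15) and the lowest granule cell count (11). Without it, Lhx1 1421951_at switched completely, with p = 0.0001554 by Fisher's exact test, and the difference in the share of members detected stayed at -6.94 percentage points.

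Genes whose calls were most like those of a member were found by counting the arrays with a different call, over 34940 probe sets with 1 symbol outside the family. Arg2 and Cacnb2 matched Lhx2 on every array, Gpr151 and Lpcat2 matched Lhx8, and Adamtsl2 matched Isl1 1450723_at. Myof and Top2a differed from Lhx6 1422262_a_at on 1 array each. Calls identical to those of Lhx1 1450428_at were found for 18 genes and of Lhx1 1421951_at for 45, and 4 genes differed from Lhx9 1431598_a_at on 1 array each.

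Transcripts of related genes and of proteins that work with LIM homeodomain proteins were detected more evenly. Of 24 probe sets of 13 further genes (LIM homeobox genes, partners and the non-coding Lhx1os), 18 were detected on all 16 arrays, 3 on none and 3 on some, and 9 genes had a probe set on all arrays. Ldb1, the main bridging cofactor, Lmo4, a LIM-only protein, and Ssbp3, which stabilises Ldb, were on every array. None of the 24 had an unadjusted p under 0.05 by Fisher's exact test between brain parts or between genotypes. Only the Isl2 probe set, detected on 6 arrays, could have reached one. The genes with other patterns were named after their calls were seen. Lmx1b, the paralogue of Lmx1a, was on no array at either probe set, nor was 1 of the 5 probe sets of Rlim. Lmo3 was on 5 cerebellum and all 8 rest-of-brain arrays (Fisher's exact p = 0.2), and Isl2, the paralogue of Isl1, on 4 and 2 (p = 0.608). Isl2 was seen on 4 cerebellum arrays where Isl1 was on none.

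**Figure D4:**
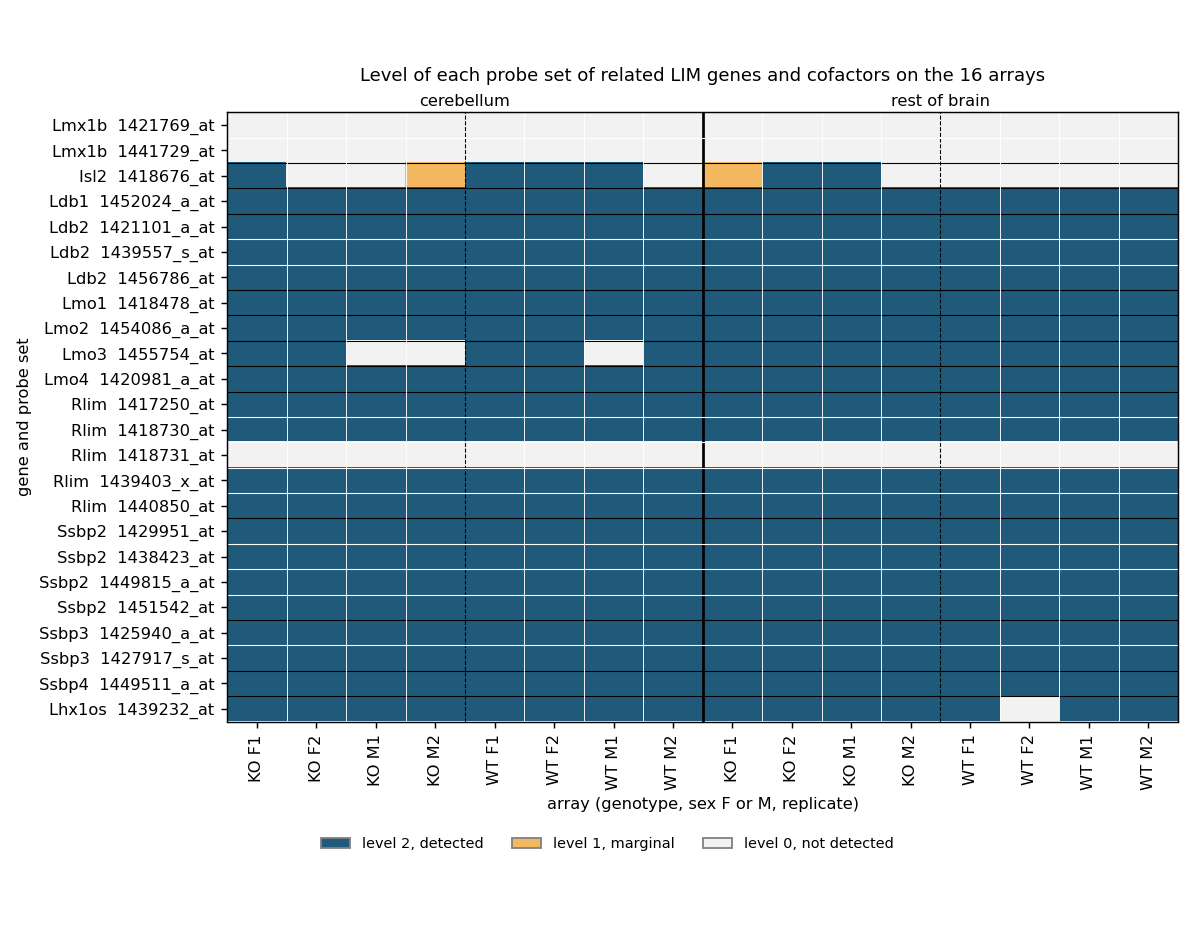
Level of each of the 24 probe sets of related LIM homeobox genes, partners and Lhx1os (rows) on each of the 16 arrays (columns, named by genotype, sex and replicate), with cerebellum left of rest of brain. All but 6 rows are detected on all 16 arrays.

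The KO and WT arrays were compared to ask whether loss of the SINE isoform moved the detection of these genes. On average, 40.3% ± 6.47 of member probe sets were detected on KO arrays and 44.4% ± 6.64 on WT arrays (SD, n = 8 each), a difference of -4.17 percentage points that was smaller than the spread between arrays. For all probe sets the shares were 59.6% and 59.8%. Of the 18 probe sets, 3 were detected on more KO than WT arrays, 6 on fewer and 9 on as many. Fisher's exact test over the 8 and 8 arrays called 0 member probe sets, and 0 had an unadjusted p under 0.05. Only 4 of the 18 were detected on 5 to 11 arrays, where Fisher's test can give such a p. For the others its outcome was fixed in advance. The test within sex and brain part also gave 0, but there the outcome was fixed for every member. The calls of each member varied too little within a sex and brain part for such a p. Of all probe sets, 0.0843% had an unadjusted p under 0.05 and 0% were called, over all or over the limited set.

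The genotypes differed most, by 2 arrays, at 3 probe sets. Lhx2 1418317_at was detected on 5 KO and 7 WT arrays, all of the difference in the cerebellum, with 1 of 4 KO and 3 of 4 WT arrays. Those 3 WT arrays included WT female replicate 2, which stood apart from the other cerebellum arrays. The KO arrays without Lhx2 included KO male replicate 2, which had the fewest probe sets detected of all arrays, 25517. Lhx9 1431598_a_at was also detected on 5 KO and 7 WT arrays, and Lhx6 1422262_a_at on 1 KO and 3 WT arrays. Each had p = 0.569 by Fisher's exact test, and at 12, 12 and 4 arrays detected none could reach a p under 0.05. Lhx1 1450428_at and Lhx6 1425094_a_at had equal numbers, 4 KO and 4 WT arrays each, as a complete switch between the brain parts requires. Isl1 1450723_at was on 3 KO and 2 WT arrays, and Lhx8 1427300_at on 2 KO and 1 WT arrays (p = 1 for each by the same exact test).

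Within one sex and brain part, 2 KO arrays against 2 WT arrays cannot reach a p under 0.05, and the values are a description. A switch, with both arrays of one genotype detected and neither of the other, occurred at 1 member probe set. In the male rest of the brain, Lhx6 1422262_a_at was at level 0 on both KO arrays and level 2 on both WT arrays, while Lhx6 1425094_a_at was at level 2 on all 4. Of all probe sets, 1.02% switched one way or the other in that comparison. No member switched in the female cerebellum, the male cerebellum or the female rest of the brain, where 1.45%, 1.1% and 0.94% of all probe sets did. Between the 2 arrays of one group, 0 to 3 of the 18 member probe sets (0 to 16.7%) were called differently, against 5.98 to 7.95% of all probe sets.

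**Figure D5:**
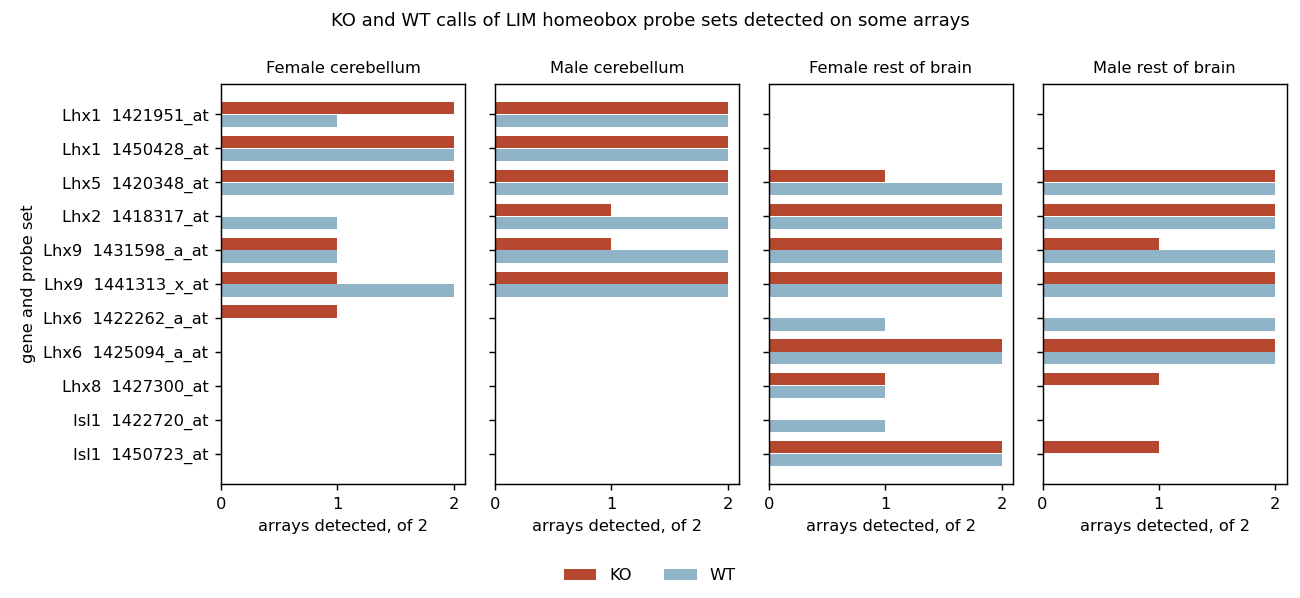
Arrays with each probe set detected, of 2 per genotype (horizontal axis, bars from 0), for the 11 LIM homeobox probe sets detected on some arrays, with one panel for each sex and brain part, KO above WT. The single row with 0 KO and 2 WT arrays in a panel is Lhx6 1422262_a_at in the male rest of the brain.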

How the data were processed

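Gene expression was measured on Affymetrix 3′ expression arrays, 1 per specimen. Probe set names match a mouse array, although a human array is named in the methods. The authors name MAS5, run in Expression Console 1.2, for the array output files, while their differential expression used intensities normalized by RMA. The deposited table, whose unit is given nowhere, does not hold such intensities. It holds 5 distinct numbers that were read as detection levels, with a value above 5e-38 taken as detected. Groups came from the sample titles. Of all values, 59.7% were at level 2, 1.51% at level 1, 37.3% at level 0, 0.267% at -1 and 1.19% at -2. Each array detected 25517 to 28155 probe sets. Precision is limited by how many arrays there are. Actb and Gapdh probe sets were detected on every array. In all, 34958 probe sets had 1 gene symbol, 932 several, and 9211 were unnamed here.

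Calls were compared by Fisher's exact test, two-sided, for each probe set. Benjamini-Hochberg adjustment ran over all of them at an adjusted p under 0.05, or only over probe sets detected on 5 to 11 arrays. KO and WT arrays were also compared by an exact test within sex and brain part. The alternatives were marginal read as detected, negative levels left out, probe sets whose names end in _a_at, _s_at or _x_at (probes shared by several transcripts or genes) left out, counting by gene, pairing by replicate number, and each array left out. The tests were tested on simulated data that held more complete switches between groups than these data. Such switches passed the adjustment over all probe sets there, which they did not here. The members, lists and tests were chosen with earlier results of these data known. Named in the text were all members, partner genes whose array counts differed by 4 or more and up to 3 on all arrays, the genes with calls nearest to those of a member where no more than 3 tied, and up to 3 genes of a marker list with the largest difference between brain parts; others were named after their calls were seen. Promoter windows came from a set of RefSeq windows that held 9 of the 10 members. The tests ran in scipy 1.17.1 under Python 3.11.15, with pandas 2.3.3, matplotlib 3.10.9 and numpy 2.4.6.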

Additional observations from a re-analysis of the deposited data

Results flagged for a closer look

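Member probe sets detected per array were looked at in 10 sets of arrays for an array far from the others, and 1 was found. A set in which all arrays but 1 have equal counts is always marked, whatever the gap. The sets also share arrays, so how often chance marks a set is not known. In the male cerebellum, KO replicate 2 had 6 member probe sets detected, and the other 3 arrays had 8 each. That array had the fewest probe sets detected of all 16, 25517, and lacked Lhx2 and Lhx9 1431598_a_at.

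Marginal calls, which the comparisons counted as not detected, numbered 3 of 144 at member probe sets on KO arrays and 2 of 144 on WT arrays. They fell on Lhx9 1431598_a_at (2 times) and Isl1 1450723_at in KO, and on Lhx1 1421951_at and Lhx8 1427300_at in WT. The difference was not tested.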

How the results depend on the processing

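The number of member probe sets called between brain parts, 0 as reported, rested on an adjusted p of 0.0501 (Fisher's exact test) and was 3 over the limited set of probe sets, 2 with negative levels left out, 1 without probe sets of shared probes (names ending in _a_at, _s_at or _x_at), 1 by gene, and 2 to 3 when any single array was left out, since more probe sets then switch completely at the same exact p. The count of complete switches, 2, was 1 without those of shared probes and 1 by gene, and 2 to 3 with an array left out. The share of members detected, cerebellum minus rest of brain, was -6.94 percentage points, 2.885 without those of shared probes, -12.5 by gene, and -8.73 to -5.56 with an array left out. Switches between KO and WT within sex and brain part numbered 1, and 2 with marginal read as detected, 0 without those of shared probes, and 1 to 3 with an array left out. Unadjusted counts between brain parts were 3 to 5 in all alternatives, against 4. Between KO and WT, 0 member probe sets were called or had an unadjusted p under 0.05 in every alternative. As reported, only 4 of the 18 could reach such a p, and in the test within sex and brain part no member could. The difference in the share detected was -5.75 to -2.58 percentage points with an array left out, -0.9615 without those of shared probes and 0 by gene.

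Same-numbered arrays of different groups had correlations of their deviations from -0.0181 to 0.0647, so the numbers were not taken as pairs. Whether such arrays share an animal or litter was not tested. With the replicate block (exact McNemar test), 3 member probe sets had an unadjusted p under 0.05 between brain parts and 0 were called, and Isl1 1450723_at had p = 0.0625. The 8 probe sets tested singly had 314 alternative p values, for brain part and for genotype together. Many could not fall under 0.05 at their totals of arrays detected. Of the 314, 309 stayed on their side of 0.05. The others were that of Isl1 and 4 of Lhx2, each with a cerebellum array left out, which passed under 0.05 (0.0256).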
